A study of Saccharomyces cerevisiae with 66 samples.

Results

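A group of 10 inducible genes of budding yeast that are known for moving to nuclear pores (INO1, TSA2, HSP104, HXK1, SUC2, CTT1, HIS4, PRM1, FIG2 and SSA4) were followed through 21 tables of methylation signal at nucleosome-depleted regions (NDRs), the short stretches of open DNA that usually mark promoters. An NDR belonged to a gene when its listed start lay within 1 kb of the start codon in the sacCer3 (R64) annotation. By this rule 8 of the 10 genes had an NDR and SUC2 had 2, which gave 9 NDRs of the 4828 in the series. HIS4 and SSA4 had none in the window, and the nearest NDR started 2718 bp from the HIS4 start codon and 2044 bp from that of SSA4. Of all 6002 annotated protein-coding genes, 5213 had an NDR within the same window.

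The nuclear pore complex is a gate in the nuclear envelope that also holds some active genes at its inner face, where the basket protein Mlp1 sits. Several yeast genes sit inside the nucleus while silent and move to the pores when their inducer arrives. At INO1, short promoter elements called DNA zip codes are enough to bring a locus to the pores, and the transcription factors that switch a gene on, such as Gcn4 at HIS4 or Ste12 at PRM1, have been tied to the same move. For these genes the labels name no inducer other than the change of sugar in some of the cultures, which concerns the glucose-repressed SUC2 and HXK1.

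Signals came from MTAC, in which a fusion of LacI, a nuclear localization signal and the GpC methyltransferase M.CviPI binds a LacO array inserted at a chosen locus, the viewpoint (VP). DNA with methylated cytosine is then pulled down and sequenced (MeDIP-seq). All strains had the alleles ade2-1, can1-100, ura3-1, trp1-1, leu2-3 with leu2-112, and his3-11 with his3-15, and carried the fusion, driven by an estradiol-responsive promoter, at ADH1 with a LEU2 marker. Targeted strains carried in addition LacO and HIS3 at the VP, control strains no LacO, and both received 2 nM β-estradiol. Each table pools 2 targeted and 2 control libraries. A first set of 11 MATa tables (VPs at CDC43, OLE1, PCL10, PUS2 and YBP2 on chromosome VII, LSM4 and SHC1 on V, VHR1 on IX, and LHS1, MBR1 and MNR2 on XI) had 256 LacO copies, 2 h of induction and a common control. The study describes the SHC1 VP in medium without methionine, which the labels of this set do not state. A set of 4 MATa tables had the YBP2 VP with 4, 8, 16 or 256 copies, 1 h of induction and a common control, and 2 MATa tables had the TRP2 VP (256 copies, 2 h) with or without methionine in the medium of both strains. In 4 tables the array (256 copies, 2 h) stood at TAF2, next to the mating-type locus MAT, in MATa or MATalpha cells given glucose (D) or galactose (G), and there targeted and control strains also carried GAL10pr-HO::URA3, so that galactose turned on the HO endonuclease and cut MAT in part of the cells. By the study's methods, the G cultures grew in raffinose before galactose and received glucose after it to end HO expression, with estradiol present from the addition of galactose on, for longer than the 2 h of the labels.

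The only value used from each table is the base mean, the authors' mean over these libraries of the reads at an NDR after division by size factors. It joins the targeted with the control strain and carries no SD and no n, and the depth of a single library is unknown from the tables. Differences between tables that share controls are therefore muted forms of the differences between targeted strains. Medians of the base mean over all NDRs ran from 15.7 to 49.5 among the tables, so tables were put on 1 scale before they were compared. A base mean adds up methylation from the array, from free enzyme and from the openness of the NDR, and these cannot be told apart in it. The replicates are said in the study to be biologically independent, but the tables give no value per replicate.

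The site of M.CviPI is the dinucleotide GC, and the sequences of 4 NDRs on which the results turn are shown with each GC in capitals. Each is 150 bases long from the listed NDR start (the tables give no NDR end), read along the coding strand of the gene from the R64 reference. SUC2 encodes the invertase that splits sucrose and raffinose, HXK1 a hexokinase, and both are repressed in glucose. CTT1 encodes the cytosolic catalase of the general stress response and is shown as a member with high signal that hardly moved.
SUC2 distal NDR, chrIX:36850-36999, plus strand: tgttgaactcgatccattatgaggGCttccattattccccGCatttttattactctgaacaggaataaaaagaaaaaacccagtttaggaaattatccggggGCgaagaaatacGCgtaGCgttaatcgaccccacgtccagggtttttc
SUC2 proximal NDR, chrIX:37271-37420, plus strand: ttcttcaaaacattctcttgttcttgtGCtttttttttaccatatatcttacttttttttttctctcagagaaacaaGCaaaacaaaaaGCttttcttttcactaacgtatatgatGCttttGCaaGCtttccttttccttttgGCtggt
HXK1 NDR, chrVI:255700-255849, minus strand: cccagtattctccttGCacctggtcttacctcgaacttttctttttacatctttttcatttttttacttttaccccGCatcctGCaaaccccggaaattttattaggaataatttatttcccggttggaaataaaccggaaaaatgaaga
CTT1 NDR, chrVII:654159-654308, plus strand: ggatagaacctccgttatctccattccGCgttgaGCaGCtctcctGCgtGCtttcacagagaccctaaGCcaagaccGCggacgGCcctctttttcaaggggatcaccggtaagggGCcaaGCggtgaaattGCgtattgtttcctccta

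The CTT1 window held 11 GC sites, and 94.5% of the 4828 NDR windows of this length held fewer. The SUC2 proximal, INO1 and FIG2 windows held 7 each, PRM1 6, the SUC2 distal window 5, HSP104 4, HXK1 3 and TSA2 2. The median NDR window held 5. Every member window thus offered the enzyme at least 2 sites, with TSA2 and HXK1 at the low end. In the SUC2 distal and the HXK1 window lay the letters GCGGGG, read on both strands, a form of the core site of the glucose repressor Mig1. They lay 37 bases from the SUC2 window's lower coordinate and 73 from that of HXK1. Of all NDR windows, 2.57% held these letters, and no other member window did. Other forms of the site were not searched.

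The zip code GGGTTGGA, the element named after INO1, was found within 500 bases of the start codon in INO1 and in TSA2, and in 0.7% of the 6000 promoters searched on both strands. It is shown in capitals with its flanks, on the coding strand of each gene, because it is the element that ties these 2 members to pores. INO1 encodes inositol-phosphate synthase, the first enzyme of inositol synthesis, and TSA2 a peroxiredoxin that removes peroxides.
INO1 zip code, chrX:136219-136278, minus strand: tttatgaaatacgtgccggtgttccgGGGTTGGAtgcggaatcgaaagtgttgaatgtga
TSA2 zip code, chrIV:1365916-1365975, minus strand: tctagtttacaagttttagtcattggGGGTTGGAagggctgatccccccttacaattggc

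Neither zip code lay in the NDR by which its gene was measured. The INO1 NDR started 888 bp upstream of the INO1 start codon (chromosome X, position 136821) and 48 bp upstream of that of SNA3. The TSA2 NDR started 792 bp downstream of the TSA2 start codon (chromosome IV, position 1364870), beyond the end of the gene and inside the neighboring gene PPN1. The PRM1 NDR (chromosome XIV, position 110559) lay 358 bp upstream of PRM1, which encodes a membrane protein of cell fusion in mating, and 148 bp upstream of ERG24, which encodes an enzyme of ergosterol synthesis. The other NDRs started 342 bp upstream of the start codon at HSP104 (the disaggregase of the heat shock response; chromosome XII, position 88281), 473 bp at FIG2 (a mating adhesin; chromosome III, position 266961), 475 bp at CTT1, 651 bp at HXK1, and 535 and 114 bp at SUC2. Of these, both SUC2 NDRs had the start codon of YIL163C as their nearest, 19 bp away for the proximal NDR, and the start codon of ISA1 also lay in the window of the HSP104 NDR. The values at NDRs with such neighbors belong to an open region and not to 1 gene.

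**Figure D1:**
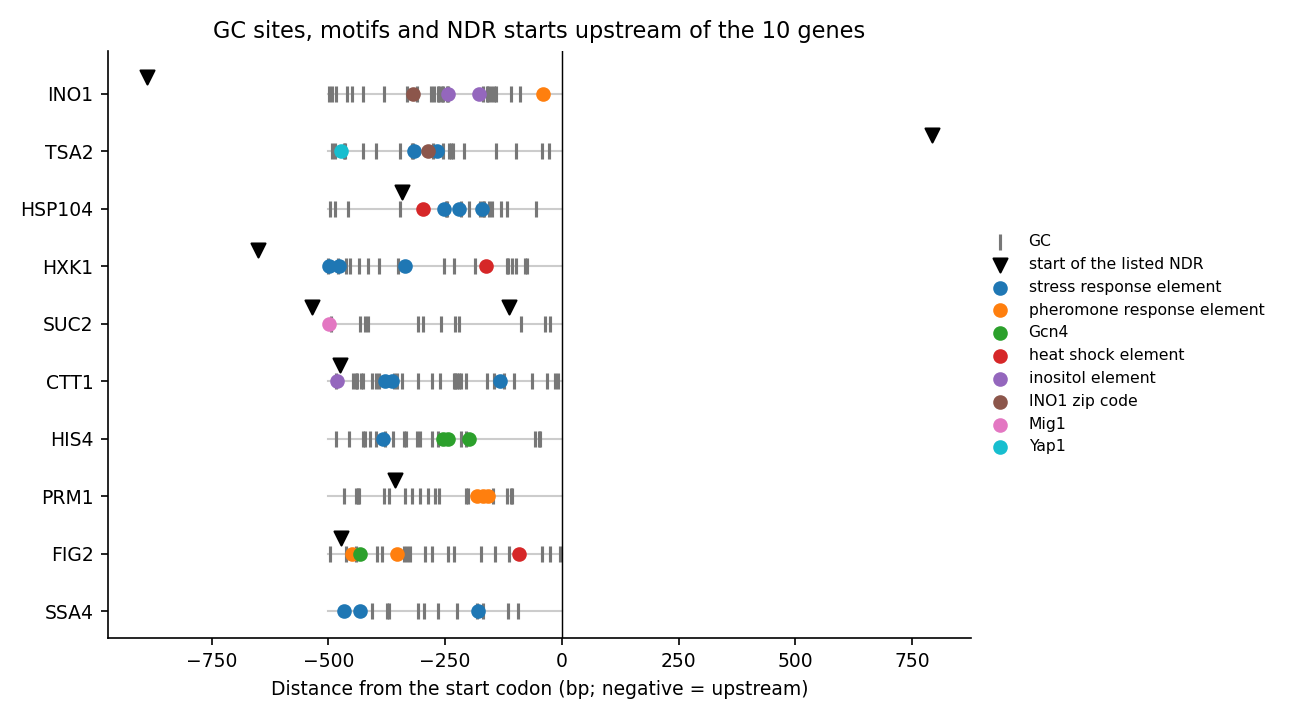
Positions (x axis, bp from the start codon, negative upstream) of GC sites (grey ticks), named motifs (colored points) and listed NDR starts (black triangles) for the 10 genes, one per line; sequence was searched over the 500 bases upstream. The NDR of TSA2 lies downstream of the start codon, and HIS4 and SSA4 carry no triangle.

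The upstream 500 bases held motifs of the regulators known for these genes. The pheromone response element TGAAACA, the site of Ste12, occurred 3 times in PRM1 and 2 times in FIG2 and in 12.02% of all promoters. The Gcn4 site TGACTC occurred 3 times in HIS4, which encodes an enzyme of histidine synthesis, and in 12.65% of all promoters. The stress response element AGGGG, the site of Msn2 and Msn4, occurred 3 times each in HSP104, HXK1, CTT1 and SSA4 (an Hsp70 chaperone made upon heat shock), 2 times in TSA2 and in 34.1% of all promoters. INO1 held the inositol element core CATGTG 2 times, against 13.2% of promoters with at least 1 match. GAANNTTC, a part of the heat shock element, was present in HSP104, HXK1 and FIG2 and in 19.2% of promoters. TTACTAA, the Yap1 site, was present in TSA2 and in 11.8% of promoters. GCGGGG was present in SUC2, 499 bases upstream, and in 5.77% of promoters. Single matches also occurred for TGAAACA in INO1, CATGTG in CTT1, AGGGG in HIS4 and TGACTC in FIG2. All matches are descriptions of sequence only.

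The members fell into 3 ranges of signal. Across the 11 tables with 256 copies and 2 h of induction, the lowest, median and highest base mean were 147, 171 and 208 at PRM1, 135, 150 and 196 at INO1, and 105, 120 and 150 at CTT1. These 3 NDRs stood at 2.50 to 4.39 times the median NDR of their table. FIG2 followed with 36.9, 48.9 and 57.3, then HSP104 with 34.7, 41.1 and 60.6, TSA2 with 34.3, 41.1 and 49.0, and HXK1 with 32.7, 39.2 and 44.0. These 4 NDRs lay between 0.828 and 1.24 times the table median, and their ranges overlapped. The SUC2 NDRs were low, with 13.3, 16.3 and 21.7 at the proximal and 9.80, 13.4 and 18.8 at the distal one, and again the ranges overlapped. The distal NDR was between percentiles 5.59 and 16.2 of its tables. All 9 NDRs passed the filter, a median base mean of at least 10 over the 11 tables, as did 4614 of all NDRs.

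**Figure D2:**
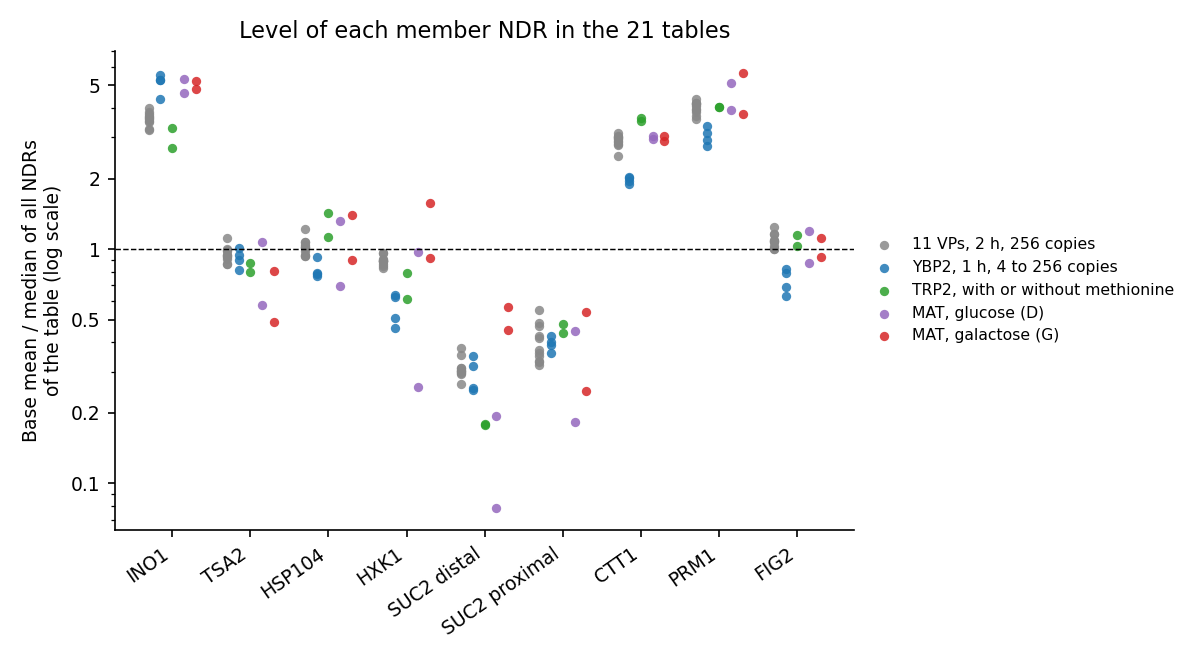
Base mean of each member NDR divided by the median of all NDRs of its table (y axis, log scale), with 1 point for each of the 21 tables, colored by experiment; the dashed line is the median NDR. INO1, CTT1 and PRM1 lie above the median in every table. Both SUC2 NDRs, HXK1 and HSP104 have their lowest point in MATa cells in glucose.

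The 11 VPs ask whether moving the array, along with the chromosomal neighborhood it samples, changed the members' signal. The pooled base mean differed little between them. Each value joins 2 targeted with 2 common control libraries, which mutes any change in the targeted strain. A small spread therefore cannot show that moving the array had little effect there. After scaling by the median of ratios, the highest table was 1.16 times the lowest at HXK1 (35.9 to 41.8), 1.22 at PRM1 (155 to 189), 1.23 at INO1 (139 to 172) and 1.24 at CTT1 (108 to 134). The corresponding ratio was 1.26 at FIG2, 1.29 at TSA2, 1.31 at HSP104, 1.44 at the distal and 1.69 at the proximal SUC2 NDR. Over the 4614 NDRs kept, the median ratio was 1.31 with quartiles of 1.23 and 1.43. The widest member, the proximal SUC2 NDR, ranged from 13.9 in the OLE1 table to 23.4 in the LHS1 table, which is more than 94.4% of all NDRs did, at a level where few reads stand behind each value.

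With any 1 VP set against the median of the 11 tables, 0 of 9 member NDRs passed 1.5-fold in any table, while 2.73% of all NDRs did so in at least 1. The largest differences were log2 folds of 0.55 with the LHS1 VP and 0.38 with the VHR1 VP, both at the proximal SUC2 NDR, followed by 0.33 at the distal one with the PUS2 VP. No member NDR lay within 30 kb of a VP. SSA4 alone was that close, 12.1 kb from SHC1, 22.9 kb from LSM4 and 25.9 kb from TRP2, and it had no NDR in its window. CTT1 shares chromosome VII with 5 of the 11 VPs, at 255 to 440 kb, and SUC2 shares chromosome IX with VHR1 at 214 kb.

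**Figure D3:**
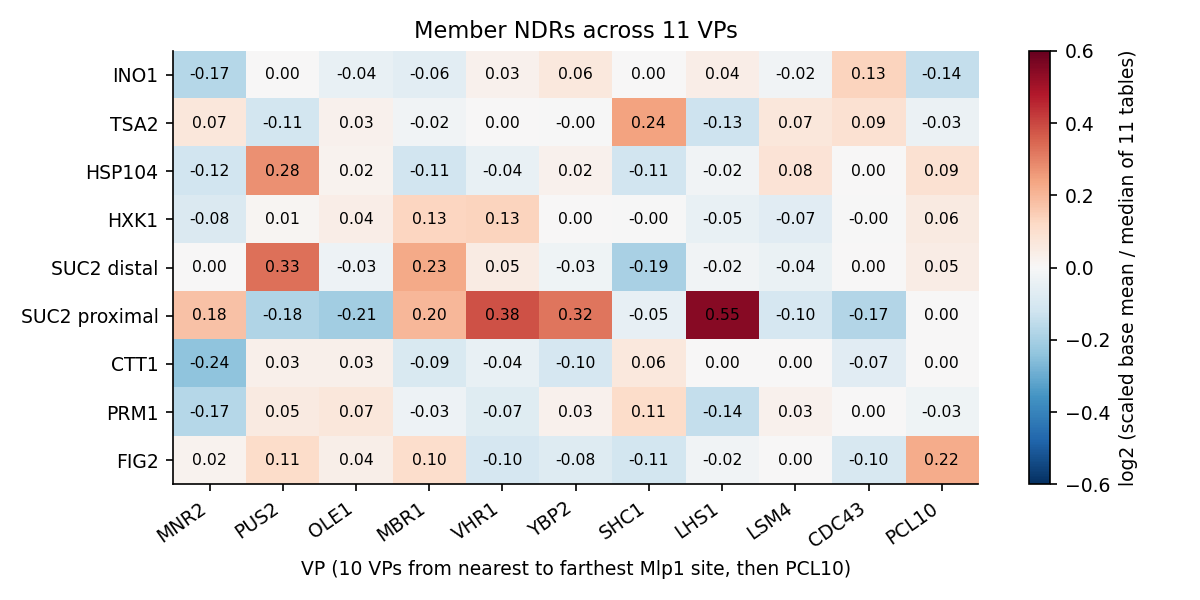
Heat map of the log2 ratio of scaled base mean to the median of 11 tables, with member NDRs as lines and VPs as columns, the first 10 VPs ordered from the nearest to the farthest Mlp1 site and PCL10 last. No cell passes 1.5-fold, and the highest value is 0.55 at the proximal SUC2 NDR with the LHS1 VP.

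The VPs were next grouped by chromosome and tested over tables. For the 5 VPs on chromosome VII against the other 6, limma on log2(scaled base mean + 1), with Benjamini-Hochberg adjustment over all 4614 NDRs, called 0 member NDRs and 0 NDRs in all (0.0%). At an unadjusted p under 0.05 there were 189 NDRs, among them HSP104, with a log2 difference of 0.13 (SE 0.06, limma adjusted p = 0.972). CTT1, on the same chromosome as these VPs, differed by 0.03 (SE 0.05, limma adjusted p = 0.972), and its scaled values in both sets of tables overlapped. For the 2 VPs on chromosome V against the other 9, limma called 0 member NDRs against 0.368% of all NDRs, with 553 NDRs at an unadjusted p under 0.05. TSA2 was the member with an unadjusted p under 0.05, at a log2 difference of 0.16 (SE 0.08, limma adjusted p = 0.403). For the 3 VPs on chromosome XI, where no listed gene lies, against the other 8, limma called 0 member NDRs against 0.347% of all NDRs, with 570 NDRs at an unadjusted p under 0.05. Here PRM1 was lower (log2 difference -0.14, SE 0.05, limma adjusted p = 0.308) and the proximal SUC2 NDR higher (0.29, SE 0.12, limma adjusted p = 0.362), neither past the threshold. All 11 tables share their control libraries, so they are not independent, and the p-values measure only the spread between tables.

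Ordering 10 VPs by distance to the nearest Mlp1 site gave no common direction among the members. Spearman correlations of the scaled base mean with the VP's place in that order, given as descriptions over 10 tables that share controls, ran from -0.61 at FIG2 to 0.62 at INO1 with a median of 0.12. A positive value means more signal with VPs farther from Mlp1. TSA2 was at 0.24, HSP104 at 0.21, the proximal SUC2 NDR at 0.15, CTT1 at 0.12 and PRM1 at 0.09, while HXK1 was at -0.30 and the distal SUC2 NDR at -0.39. Among all 4614 NDRs the median was -0.02, and the 5th and 95th percentiles were -0.54 and 0.61. With each table scaled to the same total, the members' median was -0.03 and INO1 was at 0.31, the lowest value was -0.64 at the distal SUC2 NDR, and the proximal SUC2 NDR, CTT1 and PRM1 turned negative (-0.03, -0.02 and -0.04). At CTT1 the value was 0.77 once the tables with VPs on its own chromosome were left out, over the 6 tables that remained.

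The 3 members with the widest range over the 11 tables were compared with all NDRs that lay over 30 kb away or on another chromosome. The proximal SUC2 NDR was most like NDRs near TIM12 (Pearson r = 0.98 over 11 tables), KSP1 (0.94) and an NDR on chromosome V at 189321 without a start codon within 1 kb (0.92). The distal SUC2 NDR was most like those near DBP8 (0.86), LOC1 (0.80) and SRP21 (0.79). HSP104 was most like NDRs near GTT1 (0.89) and at 976300 on chromosome XV (0.87) and 628282 on chromosome XII (0.85), neither of which has a start codon within 1 kb. These are the highest of 4614 values each, over tables with common controls.

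The widest member fold between any 2 tables set side by side came with galactose. The distal SUC2 NDR and the HXK1 NDR were higher in galactose than in glucose in both mating types, and the other 7 member NDRs did not pass 1.5-fold. At the distal SUC2 NDR the base mean was 1.85 in MATa cells in glucose and 18.2 in galactose, and 3.42 and 7.12 in MATalpha cells. Both values in galactose were above both values in glucose. With 2 values a side this carries little weight, and the share of all NDRs with such a separation was not counted. After scaling of the 4 tables these were 1.73 and 12.5 in MATa (7.20-fold) and 4.03 and 9.39 in MATalpha cells (2.33-fold). At HXK1 the base mean was 6.07 in glucose and 29.4 in galactose in MATa cells, and 17.1 and 24.7 in MATalpha cells. Scaled, these were 5.71 and 20.1 (3.53-fold) and 20.2 and 32.6 (1.61-fold), so that MATa cells in galactose stood level with MATalpha cells in glucose. By comparison, 0.889% of all 4614 NDRs were higher by 1.5-fold in both mating types and 1.04% lower in both, among them 0 member NDRs.

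**Figure D4:**
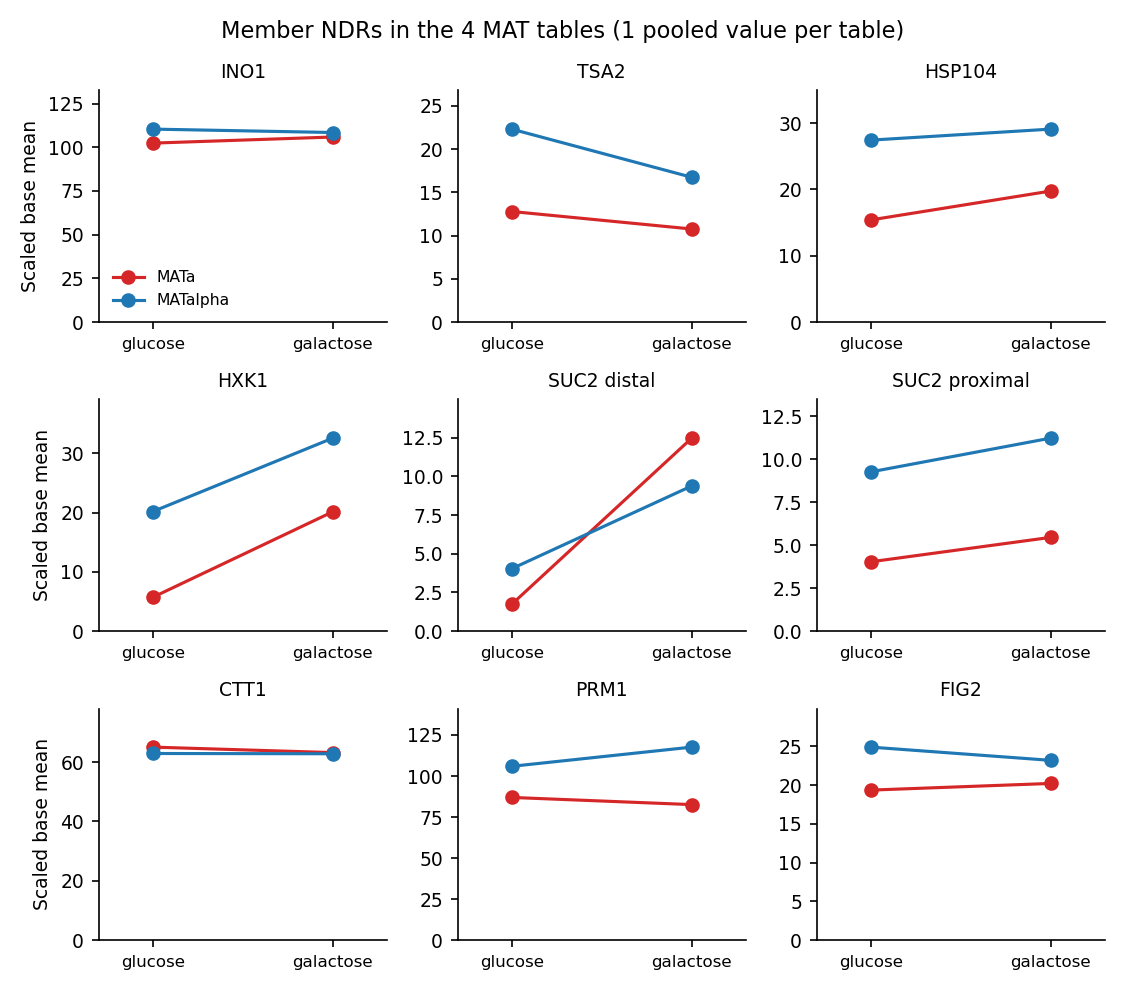
Scaled base mean (y axis, linear from 0) of each member NDR in glucose and galactose, with MATa in red and MATalpha in blue; each point is 1 table, a pooled value without error bar. The distal SUC2 NDR and HXK1 rise along both lines, from 1.73 to 12.5 and from 5.71 to 20.1 in MATa cells, whereas the CTT1 and INO1 lines stay nearly flat.

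Of the SUC2 NDRs, the distal one alone passed the fold. The proximal NDR, which starts 114 bp from the start codon, went from 4.03 to 5.45 in MATa (1.35-fold) and from 9.26 to 11.2 in MATalpha cells (1.21-fold), on the same scale. Whether the NDRs differ in their response was not tested, as each value is 1 table. Ranked by the smaller of its 2 log2 folds, the distal SUC2 NDR stood in place 3 and HXK1 in place 25 of 4614. Among the 41 NDRs higher in both mating types, 4 held GCGGGG within 150 bases of the listed start (9.76%), against 122 of the 4614 NDRs kept (2.64%). The distal SUC2 and HXK1 NDRs are among those 4, and without them the count was 2 of 39 (5.13%). The low level of SUC2 bears on its count. Of the 804 NDRs with a median base mean between 10 and 20 over the 11 tables, 2.49% were called higher in galactose. Between 20 and 50, where HXK1 lies, 0.906% of 1656 NDRs were called, and 0.279% of the 2154 NDRs at 50 or more. The part of low level in the result at SUC2 was not tested. The sequence of sugars, HO expression and the cut at MAT go together in this design, and each condition was sampled with 1 targeted and 1 control group, so they cannot be told apart.

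INO1, CTT1 and PRM1 stayed nearly level between the sugars. INO1 was at 102 and 106 in MATa and at 110 and 108 in MATalpha cells for glucose and galactose. CTT1 was at 65.1 and 63.2 in MATa cells and at 62.9 and 62.8 in MATalpha cells. PRM1 was at 86.9 and 82.6 in MATa cells and at 105.9 and 117.6 in MATalpha cells. FIG2, the member nearest to the array at 63.7 kb along chromosome III, had log2 folds of 0.06 and -0.10. HSP104 had log2 folds of 0.36 in MATa and 0.08 in MATalpha cells, and TSA2 of -0.25 and -0.41.

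**Figure D5:**
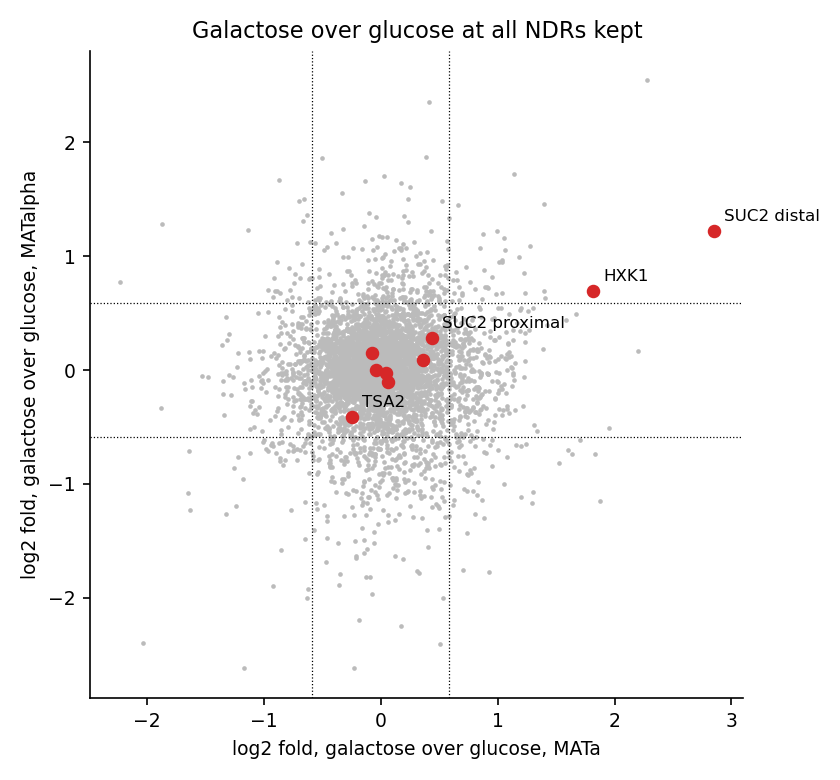
Log2 fold of galactose over glucose in MATa (x axis) against MATalpha cells (y axis) for the NDRs kept by the filter with a finite fold (grey) and the 9 member NDRs (red); dotted lines mark 1.5-fold. The distal SUC2 NDR (2.85 and 1.22) and HXK1 (1.82 and 0.69) lie in the upper right corner, and the other members lie within 1.5-fold on both axes.

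Genes that glucose represses through Mig1 were taken as a list of 16, SUC2 and HXK1 among them, of which 15 had an NDR, 18 NDRs in all. Of these, 3 were higher in both mating types, those of HXT4, HXK1 and the distal NDR of SUC2, and so 1 gene beyond the members. HXT4, which encodes a high-affinity glucose transporter, went from 32.9 to 61.1 in MATa and from 119.9 to 199.3 in MATalpha cells. The list's median log2 folds were 0.15 in MATa and 0.32 in MATalpha cells, against -0.01 and 0.00 over all NDRs. Without the SUC2 and HXK1 NDRs, 1 of 15 was higher in both mating types and the medians were 0.11 and 0.12. JEN1, a lactate transporter, had 1.31 in MATa cells but 0.55 in MATalpha cells, just under the fold used. Of the other lists, PRM6 (a potassium channel under pheromone control) was the single gene higher in both mating types among the pheromone genes, 1 of 21 NDRs. None of the 19 heat shock, 18 general stress, 18 peroxide, 13 inositol and 24 amino acid synthesis NDRs was higher in both.

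Mating type was compared in the same 4 tables. In galactose the labels give the type before HO expression, and the study reports that part of these cells then switched type. The galactose tables thus hold mixed populations and are no clean repeat of the comparison in glucose. Lower in MATa than in MATalpha cells by 1.5-fold in both sugars were the NDRs of HXK1, TSA2 and the proximal SUC2 NDR, 3 of 9, against 10.8% of all NDRs. Higher in MATa were 0 of 9, against 11.5%. HXK1 differed by a log2 fold of -1.82 in glucose and -0.69 in galactose, the proximal SUC2 NDR by -1.20 and -1.04, and TSA2 by -0.80 and -0.64. These folds reuse the values of the galactose comparison and are not separate evidence. At HXK1 the low value of MATa cells in glucose (scaled base mean 5.71) enters both comparisons. MATa and MATalpha tables also have separate controls, so mating type and control libraries cannot be told apart. HSP104 was just outside the rule, with -0.83 and -0.56. With each table scaled to the same total, the median of all NDRs moved up to 0.11 in glucose and 0.16 in galactose, and the share of calls that were higher in MATa went from 52.0% to 63.3% in glucose and from 53.5% to 68.0% in galactose. Under that scaling the proximal SUC2 NDR alone stayed past the fold in both sugars. Of the lists, 5 of 18 glucose-repressed NDRs and 4 of 18 peroxide NDRs were lower in MATa cells in both sugars, HXK1 and the proximal SUC2 NDR being among the 5 and TSA2 among the 4, while 2 of 18 glucose-repressed NDRs (those of ADH2 and ICL1) were higher. Without the members, 3 of 15 and 3 of 17 were lower, with HXT4 at -1.87 and -1.71 in glucose and galactose. PRM1 and FIG2, which are induced by mating pheromone, had log2 folds of -0.28 and -0.51, and of -0.36 and -0.20, in glucose and galactose.

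Induction time was compared at the YBP2 VP with 256 copies. HXK1 was higher at 2 h than at 1 h, with a base mean of 33.5 against 13.98 and, after scaling, 28.1 against 16.7 (1.68-fold). It was the 1 member past 1.5-fold of 9, against 5.22% of all NDRs higher. None was lower, against 11.3%. PRM1 was at 131 against 95.5 (log2 fold 0.46) and CTT1 at 88.4 against 66.6 (log2 fold 0.41), while INO1 was at 121 against 143 (log2 fold -0.24). In the glucose-repressed list 4 of 18 NDRs were higher, HXK1 itself and, without the members, 3 of 15, among them HXT4 and JEN1 with log2 folds of 1.01 and 1.39. With each table scaled to the same total, the median of all NDRs rose by 0.17 and the share of calls that were higher went from 31.6% to 64.9%. The same shift of all NDRs put PRM1 past 1.5-fold as well. The 2 times have separate controls, so the time, the control libraries and the growth of the culture cannot be told apart.

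The number of LacO copies at YBP2 moved no member past 1.5-fold at 1 h. Against 4 copies, 0 of 9 were past it with 8 copies (3.97% of all NDRs), 0 with 16 copies (2.71%) and 0 with 256 copies (4.7%). HXK1 was at a scaled base mean of 9.40 with 4 copies and differed from it by log2 folds of 0.47, 0.46 and 0.15 with 8, 16 and 256 copies. INO1 was at 113, 109, 108 and 89.5 with 4, 8, 16 and 256 copies, and FIG2 at 12.8, 14.3, 16.8 and 16.2. HXK1 was highest with 8 and 16 copies and not with 256, and INO1 was lowest with 256. For 256 against 4 copies, the share of calls that were higher was 69.6%, and 25.5% with tables scaled to the same total, which moved the median of all NDRs by -0.16.

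Removal of methionine, compared at the TRP2 VP, moved 0 of 9 member NDRs past 1.5-fold, against 6.83% of all NDRs. HXK1 was at 18.6 with and 14.8 without methionine after scaling, a log2 fold of -0.32. HSP104 went from 33.5 to 27.1 (-0.31) and INO1 from 77.1 to 65.4 (-0.24). CTT1 was at 82.6 and 88.0 and PRM1 at 94.9 and 97.6. The distal SUC2 NDR was at 4.19 and 4.30, the lowest of any member in these 2 tables. Of the 24 NDRs of amino acid synthesis genes under Gcn4, the list to which HIS4 belongs, 2 passed 1.5-fold, near ILV3 and LYS9.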

How the data were processed

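The labels describe 66 MeDIP-seq libraries in 33 groups of 2, and 58 of them are in the 29 groups behind the 21 tables. The MLP1/2 mutant and Mlp1-M.CviPI libraries were not analysed here. The submitters' processing notes name fastp 0.23.2, BWA 0.7.17 with the sacCer3 genome, Picard, Subread with featureCounts 2.0.3, deepTools 3.5.1 and DESeq2 1.38.0. The base mean of the deposited tables is a signal value, which the authors obtained as the mean of size-factor-normalized reads at an NDR over 2 targeted and 2 control libraries. The other deposited columns hold the authors' own comparison of targeted with control strains (log2 fold change, standard error, Wald statistic, p-value, adjusted p-value and its logarithm) and were not used. The tables give no depth, and no interval was computed.

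For each comparison, base means were scaled by the median of ratios over the NDRs kept (median base mean of at least 10 over the 11 tables with a common control). Contrasts over these 11 tables used limma 3.58.1 (R 4.3.3) with a trend, two-sided, on log2(scaled base mean + 1), with Benjamini-Hochberg adjustment over all NDRs kept and a threshold of 0.05. Single members were also tested by exact permutation of the tables. The fit was tested on simulated data. Comparisons with 1 table a side have no test, and NDRs past 1.5-fold were counted. Folds are ratios without a pseudocount. VP positions are midpoints of the VP genes (TAF2 for MAT). The order of VPs by distance to Mlp1 is the one the study gives. The last listed NDR of every chromosome lay within the R64 sequence. Motifs were searched on both strands. The text names the 10 listed genes, up to 3 called genes per list and comparison, and the 3 most similar NDRs for the 3 widest members. ERG24, SNA3, PPN1 and JEN1 in the galactose comparison were named after their values or positions were seen. The members and the 7 gene lists were chosen with earlier results of these data known. Alternatives were another scaling, filter, pseudocount, fold and window, and leaving out each table. Python 3.11.15 was used with pandas 2.3.3, numpy 2.4.6, matplotlib 3.10.9 and scipy 1.17.1.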

Additional observations from a re-analysis of the deposited data

Results flagged for a closer look

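Each member NDR was checked in sets of 5 to 9 tables formed by the chromosome of the VP, 36 checks in all. In 4 checks a value lay apart from the rest of its set, and about 1 in 20 checks is expected to do so by chance. The sets overlap in their tables, so the same value can be counted more than once. The distal SUC2 NDR was at a scaled base mean of 16.4 with the PUS2 VP, against 13.5 in the next highest table, both among the 5 VPs on chromosome VII and among the 8 VPs not on XI. HSP104 was at 52.8 with the same VP, against 46.5 in the next highest of the 9 tables with VPs not on V. CTT1 was lowest at 108.3 with the MNR2 VP, against 119.6 in the next lowest of the same 9 tables.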

How the results depend on the processing

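No paired analysis was possible because the tables hold no value per library. No member NDR passed the limma threshold for VPs on chromosome VII, V or XI under another scaling, filter or pseudocount or without any 1 table (0 to 0 members). Without adjustment, limma had 1 member under 0.05 for VII, 1 for V and 2 for XI. The exact permutation test, also unadjusted, put 1 member under 0.05 in each. These were HSP104 for VII (exact p = 0.039), the distal SUC2 NDR for V (exact p = 0.0364) and PRM1 for XI (exact p = 0.0242). With 2 tables against 9, the value for V is the smallest this test can give. Only the 9 member NDRs were tested by permutation, so the share of all NDRs under 0.05 is not known. The NDRs called in all for V were 17, 10 with a filter of 30, and 8 (without SHC1) to 27 (without LSM4) with 1 table left out; for XI they were 16 and 14 to 24. For a single VP, 0 to 0 members passed 1.5-fold with 1 table left out. With tables scaled to the same total, induction time had 2 members past the fold (HXK1 and PRM1) and mating type 1 (the proximal SUC2 NDR). For induction time, that scaling raised the log2 fold of every NDR by the same amount, and more of all NDRs were then higher. PRM1 passed the fold with this shift of all NDRs, so its call is no result about the members alone. With a filter of 30, which removes both SUC2 NDRs, galactose and mating type had 1 each (HXK1). At a fold of 2, induction time had 0, galactose 1 (the distal SUC2 NDR) and mating type 1 (the proximal SUC2 NDR). In comparisons chosen after seeing the data, galactose had 2 members in MATa and 2 in MATalpha cells alone. Of all 4614 NDRs, 398 were higher and 315 lower in galactose in MATa cells, and 279 and 410 in MATalpha cells. Mating type had 5 members in glucose alone, where 929 of all NDRs were higher and 859 lower in MATa. It had 3 members in galactose alone, where 1041 were higher and 903 lower. A window of 0.5 kb kept 5 of the 9 NDRs, without INO1, TSA2, HXK1 and the distal SUC2 NDR. Within it no member was past the fold for galactose or induction time, and for mating type the proximal SUC2 NDR alone. The cause of these changes was not tested. The base mean pools strains and replicates, so no result here has an error between replicates, and SUC2 in glucose rests on few reads.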
